A study of Homo sapiens with 16 samples.

Results

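Kinesins are motor proteins that use ATP to walk along microtubules or to take them apart, and the human family was followed here in breast cancer cells depleted of the SRC family kinase YES1. The members were the 40 genes whose GENCODE 29 symbol is that of a kinesin heavy chain, out of 58735 genes in the deposited tables. They were divided by known role into 13 mitotic kinesins, 17 transport kinesins, 7 kinesins of the cilium and centriole and 3 others. The libraries came from MDA-MB-231 and SUM159PT, established triple negative breast cancer lines labelled as wild type, grown in RPMI and in Ham's F12. Each line had 4 libraries of cells given an siRNA against YES1 (siYES1) and 4 of cells given an siRNA against firefly luciferase (siNS), all transfected with Lipofectamine and taken 48 h later. Messenger RNA selected on poly-T beads was sequenced, and reads were counted per gene. The design text calls the 4 libraries of a group technical replicates, so the p-values below measure only the spread between those libraries.

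Mitotic kinesins build the bipolar spindle, attach and move chromosomes, and complete cytokinesis, and many of their transcripts peak in G2 and mitosis under repressor and activator complexes that bind the promoter elements known as CHR and CCAAT box. Transport kinesins carry mitochondria, endosomes, lysosomes and other cargo throughout interphase. A further group works at the cilium and centriole, where KIF7 takes part in Hedgehog signalling and KIF24 holds back ciliation. In cancer cells with extra centrosomes, the minus-end directed motor KIFC1 gathers the surplus poles into a pair.

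Promoter windows are shown first, because the mitotic and transport members differ in these elements. The RefSeq promoter table (GRCh38.p14) held a window for 32 of the 40 kinesins, reaching from 250 bases before the annotated start to 50 after it. The windows were searched on both strands for the letters TTTGAA or TTCGAA, called CHR here, and for CCAAT, and no matches of the different elements overlapped in any kinesin window. A CHR match was found in 10 of the 13 mitotic windows (76.9%), in 1 of 12 transport windows (8.33%) and in 16.6% of the windows of all 27305 genes. CCAAT was found in 10 of 13 mitotic windows, in 3 of 12 transport windows (25%) and in 35.7% of all windows. Both were found in 9 mitotic windows (69.2%), in 1 transport window and in 6.58% of all windows. The windows of CENPE and KIF2C held neither, KIF20A held only CCAAT, and KIF15 held only CHR. Other letters were not searched, so a window without a match may still hold an element in another form. A match is a run of letters and not a measured binding site. The stretch from 100 bases before the start to 30 after it is printed for 5 mitotic kinesins with both elements, for KIF2C, and for 2 transport kinesins as a contrast, with CHR and CCAAT matches of either strand in capitals.
KIFC1 (chr6:33391723-33391852, + strand): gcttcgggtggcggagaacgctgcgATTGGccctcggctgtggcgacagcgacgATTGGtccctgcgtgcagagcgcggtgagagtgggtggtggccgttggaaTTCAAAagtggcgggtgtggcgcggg
KIF11 (chr10:92593030-92593159, + strand): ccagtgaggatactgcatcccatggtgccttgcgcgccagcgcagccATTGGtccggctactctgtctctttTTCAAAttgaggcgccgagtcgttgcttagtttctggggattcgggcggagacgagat
KIF18A (chr11:28108127-28108256, - strand): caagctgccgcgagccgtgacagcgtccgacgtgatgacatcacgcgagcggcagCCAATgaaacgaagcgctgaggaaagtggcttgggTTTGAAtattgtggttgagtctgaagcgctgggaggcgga
KIF18B (chr17:44947744-44947873, - strand): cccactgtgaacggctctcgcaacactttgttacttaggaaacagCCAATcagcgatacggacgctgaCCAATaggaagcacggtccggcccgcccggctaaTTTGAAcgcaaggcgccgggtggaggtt
KIF4A (chrX:70290004-70290133, + strand): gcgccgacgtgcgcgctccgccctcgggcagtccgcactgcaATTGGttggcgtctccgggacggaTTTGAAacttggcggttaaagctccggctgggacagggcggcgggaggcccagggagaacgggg
KIF2C (chr1:44739737-44739866, + strand): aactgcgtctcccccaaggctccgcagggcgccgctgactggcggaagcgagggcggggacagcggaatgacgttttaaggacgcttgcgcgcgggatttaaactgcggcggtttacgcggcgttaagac
KIF3C (chr2:25982468-25982597, - strand): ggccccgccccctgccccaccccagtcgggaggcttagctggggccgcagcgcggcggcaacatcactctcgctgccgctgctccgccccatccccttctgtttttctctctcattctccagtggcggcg
KIF5B (chr10:32056396-32056525, - strand): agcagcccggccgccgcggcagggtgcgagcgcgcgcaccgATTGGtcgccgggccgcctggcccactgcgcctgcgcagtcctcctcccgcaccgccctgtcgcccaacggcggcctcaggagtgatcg

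In KIFC1 and KIF18B, a pair of CCAAT matches lay upstream of a CHR match that began at bases 5 and 3, counting the annotated start as base 1. In KIF11 and KIF4A the CHR match began 28 and 34 bases before the start, with CCAAT 53 and 58 bases before it. KIF5B was the only transport kinesin with both, and its CHR match, 140 bases before the start, lies outside the printed stretch.

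The libraries held 15680459 to 23451253 counts. YES1 stood at 12.7 to 14.4 CPM (counts scaled to the size of the library) in MDA-MB-231 siYES1 libraries and 57.1 to 71.3 CPM in siNS libraries. In SUM159PT it stood at 15.7 to 19.4 CPM in siYES1 libraries and 99.5 to 151 CPM in siNS libraries, so the groups did not overlap in either line. SUM159PT siNS replicate 1 stood apart from the other siNS libraries of its line on the second principal component, at 47.6 against -32.9 to -11.1, and results that rest on it are given with and without it. On the second component of MDA-MB-231, siNS replicates 1 and 2 stood at 14.4 and 20.9. Replicates 3 and 4 of that group stood at -17.1 and -18.6, and the reason was not tested. The mesenchymal marker VIM, an intermediate filament, averaged 831 CPM in MDA-MB-231 siYES1 and 488 CPM in siNS, and 2276 CPM in SUM159PT siYES1 and 1310 CPM in siNS. Of the 5 mesenchymal markers listed, 3 rose after siYES1 in MDA-MB-231, where 24.9% of all tested genes rose, and 4 in SUM159PT, where 17.7% did. Of the epithelial markers, the adhesion protein EPCAM fell in MDA-MB-231 (log2 fold change -0.88), and the keratins KRT8 and KRT18 rose there (0.43 and 0.31) and fell in SUM159PT (-0.86 and -1.04). The luminal factor GATA3 fell in both lines (-0.58 in MDA-MB-231 and -0.54 in SUM159PT). The receptor genes ESR1 and PGR, markers of luminal breast cells, averaged under 1 CPM in all 4 groups. The receptor gene ERBB2 averaged 109.5 CPM in MDA-MB-231 siYES1 and 118.7 CPM in siNS, and 63.95 CPM in SUM159PT siYES1 and 66.22 CPM in siNS. The luminal factor FOXA1 averaged 0.094 CPM in MDA-MB-231 siYES1 and 0 CPM in siNS. In SUM159PT FOXA1 averaged 4.17 CPM in siYES1 and 7.42 CPM in siNS, with overlapping groups (log2 fold change -0.83, adjusted p = 0.0166). Of the 8 genes listed as markers of fibroblasts, blood and endothelium, CD3E, CD68 and CDH5 averaged under 0.2 CPM in every group. The endothelial marker PECAM1 averaged 2.96 CPM in MDA-MB-231 siYES1 and 6.93 CPM in siNS, and 0.322 CPM in SUM159PT siYES1 and 1.93 CPM in siNS. The blood cell marker PTPRC averaged 0 CPM in SUM159PT siYES1 and 0.723 CPM in siNS. PDGFRA, a fibroblast receptor, averaged 30.3 CPM in SUM159PT siYES1 and 98.3 CPM in SUM159PT siNS, while the matrix protein gene DCN averaged 20.9 CPM in siYES1 and 15.5 CPM in siNS (adjusted p = 0.0565). The matrix protein gene LUM averaged 3.23 CPM in MDA-MB-231 siYES1 and 3.00 CPM in siNS, and 0 CPM in both SUM159PT groups. The part of these markers in the results was not tested. The titles and cell line labels name SUM159PT, while its columns carry the prefix S149, which could stand for another line, and the identity was not tested.

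In MDA-MB-231 all 13 mitotic kinesins rose after siYES1, and in none of them did the siYES1 and siNS libraries overlap. The threshold for a call was an adjusted p of 0.05 (Benjamini-Hochberg over all genes, edgeR's quasi-likelihood test), which 52.4% of 14319 tested genes passed, 24.9% higher and 27.5% lower. Of the 33 kinesins tested, 23 passed it, 15 of them higher. KIF2A, which also acts at spindle poles, was counted with the cilium and centriole. It did not pass the threshold (log2 fold change -0.03, adjusted p = 0.792), and its groups overlapped. In 22.4% of tested genes every siYES1 library was above every siNS library. The median log2 fold change of the mitotic kinesins was 0.96, with a range of 0.59 to 1.33, beside 0.002 for all genes tested. Their summed level came to 1423 to 1467 CPM in the siYES1 libraries and 634.6 to 809.8 CPM in the siNS libraries. In these bulk libraries, more cells in mitosis and more mitotic transcript per cell cannot be told apart. MDA-MB-231 siNS replicate 4 had the lowest mitotic sum of its group, 634.6 against 761.8 to 809.8 CPM in the other siNS libraries, and without it all 13 were still called, with a median log2 fold change of 0.85.

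**Figure D1:**
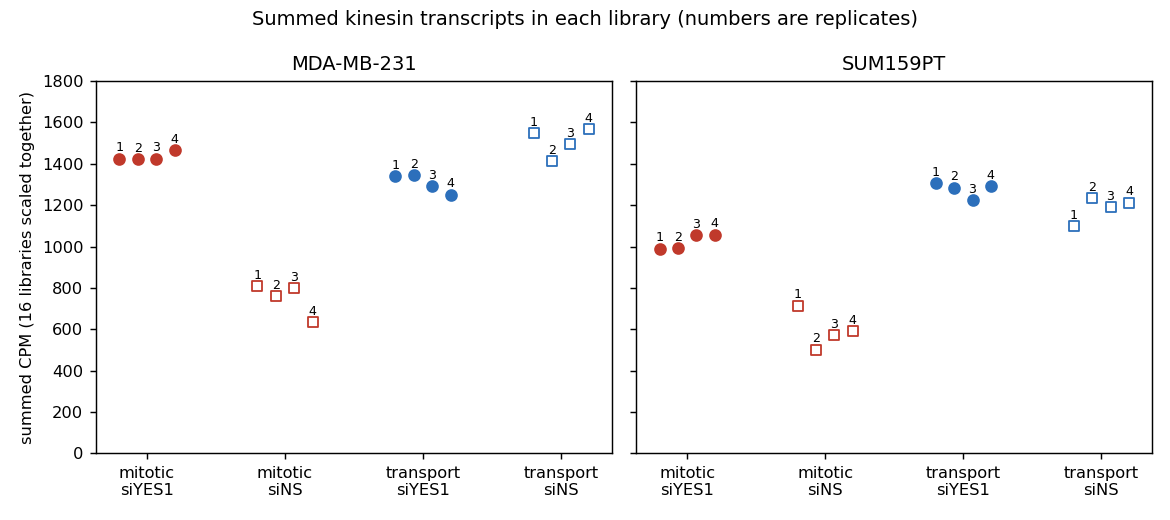
Summed CPM of the 13 mitotic kinesins (red) and the 17 transport kinesins (blue) in each library, with siYES1 as filled circles, siNS as open squares, replicate numbers above the points and all 16 libraries scaled together. The mitotic sum is 1423 to 1467 CPM in MDA-MB-231 siYES1 against 634.6 to 809.8 in siNS, and 989.9 to 1058 CPM in SUM159PT siYES1 against 501.9 to 714.7 in siNS.

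Among the motors that set up the spindle poles, KIFC1, the minus-end directed kinesin that draws poles together, changed most. Its levels were 255, 257, 247 and 269 CPM in siYES1 libraries and 93.2, 97.4, 123 and 95.4 CPM in siNS libraries. The lowest siYES1 library was about 2 times the highest siNS library, and the log2 fold change was 1.33 ± 0.09 (SE, n = 4 per group, adjusted p = 3.5e-09). KIF11, the bipolar motor that pushes the poles apart, stood at 174, 172, 176 and 181 CPM in siYES1 libraries and 91.6, 82.5, 89.8 and 67.2 CPM in siNS libraries. Its siYES1 libraries lay close together well above the siNS libraries (log2 fold change 1.09 ± 0.09, adjusted p = 3.94e-08). KIF15, which can stand in for KIF11, averaged 45.8 ± 1.39 CPM in siYES1 libraries and 25.1 ± 4.6 CPM in siNS libraries (SD, n = 4 each).

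The motors that attach and position chromosomes rose as well. KIF2C, a microtubule depolymerase that corrects faulty kinetochore attachments, stood at 161, 160, 166 and 169 CPM in siYES1 libraries and 77.9, 86.9, 90.2 and 66.8 CPM in siNS libraries. Every siYES1 library was higher than every siNS library (log2 fold change 1.03 ± 0.09, adjusted p = 6.38e-08). KIF18B, which shortens astral microtubules, averaged 108 ± 7.18 CPM in siYES1 libraries and 48.8 ± 6.48 CPM in siNS libraries, a log2 fold change of 1.15 ± 0.09. CENPE, the motor that carries chromosomes to the metaphase plate, rose by 0.96 ± 0.12 and KIF18A, which damps chromosome oscillation, by 0.78 ± 0.11 on the log2 scale. The chromatin-bound motors changed least, with 0.74 ± 0.08 for KIF4A and 0.59 ± 0.08 for KIF22, whose levels were 78.6 to 83.2 CPM in siYES1 libraries and 47.6 to 60.7 CPM in siNS libraries.

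The cytokinesis motors completed the class. KIF20B, needed late in abscission, stood at 115, 108, 117 and 107 CPM in siYES1 libraries and 60.8, 54, 53.9 and 40.5 CPM in siNS libraries (log2 fold change 1.10 ± 0.10, adjusted p = 1.6e-07). KIF23, the motor subunit of centralspindlin, averaged 145 ± 1.84 CPM in siYES1 libraries and 71.7 ± 11.4 CPM in siNS libraries. KIF14, which recruits citron kinase, rose by 0.86 ± 0.10 and KIF20A, which brings the chromosomal passenger complex to the midzone, by 0.76 ± 0.08 on the log2 scale.

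**Figure D2:**
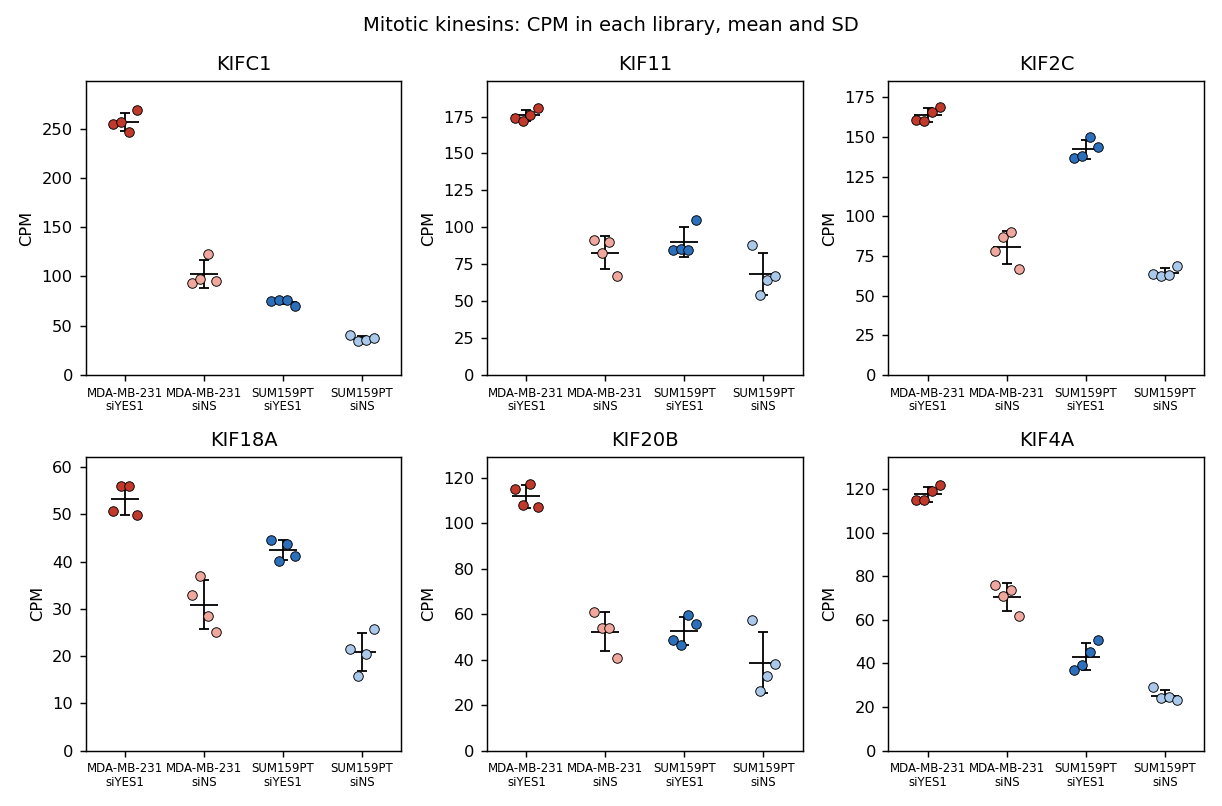
CPM of 6 mitotic kinesins in each library (points), scaled within each line, with siYES1 left of siNS and bars at the mean ± SD of 4 libraries. In MDA-MB-231 no siYES1 library overlaps siNS, while in SUM159PT the groups overlap for KIF11 and KIF20B, where siNS replicate 1 is the highest siNS library at 88.3 and 57.4 CPM.

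In SUM159PT 12 of the 13 mitotic kinesins rose after siYES1, in a comparison where 36.8% of 14469 tested genes were called, 17.7% higher and 19.0% lower. Of 34 kinesins tested 21 were called, 15 of them higher. For 9 of the 13 mitotic kinesins every siYES1 library was above every siNS library, as for 18.2% of all tested genes. The median log2 fold change was 0.75, with a range of 0.39 to 1.14, beside -0.03 for all genes tested. KIF20B was not called, with 48.5, 46.4, 59.8 and 55.6 CPM in siYES1 libraries and 57.4, 26.2, 33 and 38 CPM in siNS libraries (log2 fold change 0.44 ± 0.19, adjusted p = 0.0853). Only siNS replicate 1 reached the siYES1 values of that gene. Without that library all 13 mitotic kinesins were called, with a median of 0.84, and KIF20B had a log2 fold change of 0.69 (adjusted p = 9.06e-05). KIF20B was also called with all libraries under no filter (0.000666), DESeq2 (0.0486), limma-voom (0.0421), a replicate block (0.048) and the joint fit of both lines (0.0211). The mitotic sum of siNS replicate 1 was 714.7 CPM, against 501.9 to 590.0 CPM in the other siNS libraries of the line, and the reason was not tested.

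KIF2C changed most in SUM159PT, with 137, 138, 150 and 144 CPM in siYES1 libraries and 63.4, 62.5, 62.8 and 68.8 CPM in siNS libraries. The gap between the groups was several times the spread within either (log2 fold change 1.14 ± 0.07, adjusted p = 2.7e-07). KIF18A followed, at 44.5, 40.1, 43.8 and 41.2 CPM in siYES1 libraries and 21.6, 15.8, 20.5 and 25.7 CPM in siNS libraries (1.02 ± 0.13). KIFC1 averaged 74.5 ± 2.78 CPM in siYES1 libraries and 36.9 ± 2.77 CPM in siNS libraries (1.01 ± 0.09), again without overlap. KIF20A, KIF18B, KIF4A, KIF23 and KIF14 had log2 fold changes of 0.79, 0.78, 0.77, 0.75 and 0.72, all without overlap between the groups. The smallest called changes were those of CENPE at 0.63, KIF15 at 0.51, KIF22 at 0.44 and KIF11 at 0.39. CENPE, KIF15 and KIF11 overlapped between groups, and their calls rested on which libraries were used. With 1 library left out at a time, KIF11 kept its call in 2 of 8 fits, those without siNS replicate 1 (adjusted p = 8.6e-05) or siYES1 replicate 3, and reached up to 0.111 in the others. KIF15 was called only without siNS replicate 1 (0.000229, up to 0.114 otherwise), and CENPE lost its call without siNS replicate 3 or 4 or siYES1 replicate 3 (0.0548 to 0.0613). With total counts in place of TMM scaling, which moved the median of all genes to -0.20, the calls of KIF11, KIF15, CENPE and KIF22 were lost and 8 mitotic kinesins stayed called.

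KIF2C, with log2 fold changes of 1.03 in MDA-MB-231 and 1.14 in SUM159PT, has no match to either promoter element in its window. KIF18A, with 0.78 and 1.02, has matches to both. CENPE, with 0.96 and 0.63, has neither. KIF24, a kinesin of the cilium and centriole, has both, with 1.06 in MDA-MB-231 and 0.02 in SUM159PT. Its window, from 34329219 to 34329518 on chromosome 9 (minus strand), lies upstream of the counted gene, which spans 34252381 to 34311371. Any part of these elements in the response was not tested. Of the transport kinesins, KIF5B, the ubiquitous conventional kinesin, whose window also holds both, rose by 0.31 ± 0.07 in SUM159PT (397, 391, 376 and 411 CPM in siYES1 libraries and 292, 355, 317 and 307 CPM in siNS libraries). In MDA-MB-231 it was not called (0.06 ± 0.08, 95% interval -0.10 to 0.22), and 1 siNS library, at 395 CPM, was above all siYES1 libraries. In SUM159PT the call of KIF5B was lost with total counts as scaling (0.14, adjusted p = 0.0991).

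In contrast to the mitotic class, none of the 14 transport kinesins tested in MDA-MB-231 was called higher and 7 were called lower after siYES1. Of all tested genes 24.9% were called higher and 27.5% lower, and in 24.7% every siYES1 library was below every siNS library. All 7 transport kinesins called lower had no overlap between groups. The class median log2 fold change was -0.43, from -1.05 to 0.06, and the summed level came to 1251 to 1344 CPM in siYES1 libraries and 1414 to 1569 CPM in siNS libraries. KIF1A, KIF5A and KIF5C were too low to be tested.

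The heterotrimeric kinesins that serve cilia and other cargo, KIF3A, KIF3B and KIF3C, all fell in this line. KIF3C, on chromosome 2 from 25926596 to 25982749 (GRCh38, minus strand), had 37, 34.2, 33.7 and 32.5 CPM in siYES1 libraries and 69.3, 64.1, 73.1 and 77.4 CPM in siNS libraries. Every siYES1 library lay well below every siNS library (log2 fold change -1.05 ± 0.08, adjusted p = 2.62e-08). KIF3B averaged 125 ± 6.13 CPM in siYES1 libraries and 177 ± 13.7 CPM in siNS libraries (-0.50 ± 0.07), and KIF3A 17.6 ± 1.03 CPM in siYES1 libraries and 24.9 ± 3.54 CPM in siNS libraries (-0.50 ± 0.11). The endosomal motors KIF16B and KIF13A had log2 fold changes of -0.80 ± 0.16 and -0.58 ± 0.08. KIF13A stood at 85.1 to 106 CPM in siYES1 libraries and 141 to 159 CPM in siNS libraries. KIF21A, a motor that also restrains microtubule growth, fell by 0.53 ± 0.13 on the log2 scale, and the minus-end directed KIFC2 by 0.51 ± 0.13.

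KIF5B and KIF1C, the transport motors with the highest CPM in MDA-MB-231, did not pass the test there. KIF1C, which moves vesicles and mRNA, stood at 445, 433, 433 and 417 CPM in siYES1 libraries and 377, 423, 436 and 477 CPM in siNS libraries, with the siYES1 values inside the siNS range. Its log2 fold change of 0.01 ± 0.08 had a 95% interval of -0.14 to 0.16. KIFC3, which works at adherens junctions and the Golgi, had an interval of -0.13 to 0.21. KIF1B, a motor of mitochondria and vesicle precursors, had a log2 fold change of -0.20 and the vesicle motor KIF13B of -0.13. Both were called lower without siNS replicate 2 (adjusted p = 0.0277 and 0.0472), and KIF5B was called higher without siNS replicate 1 (0.15, adjusted p = 0.0268). KIF17, a motor of cilia and dendrites, and KIF21B, a relative of KIF21A, had -0.36 and 0.05 and lay at or under 1.44 CPM in every library of the line.

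**Figure D3:**
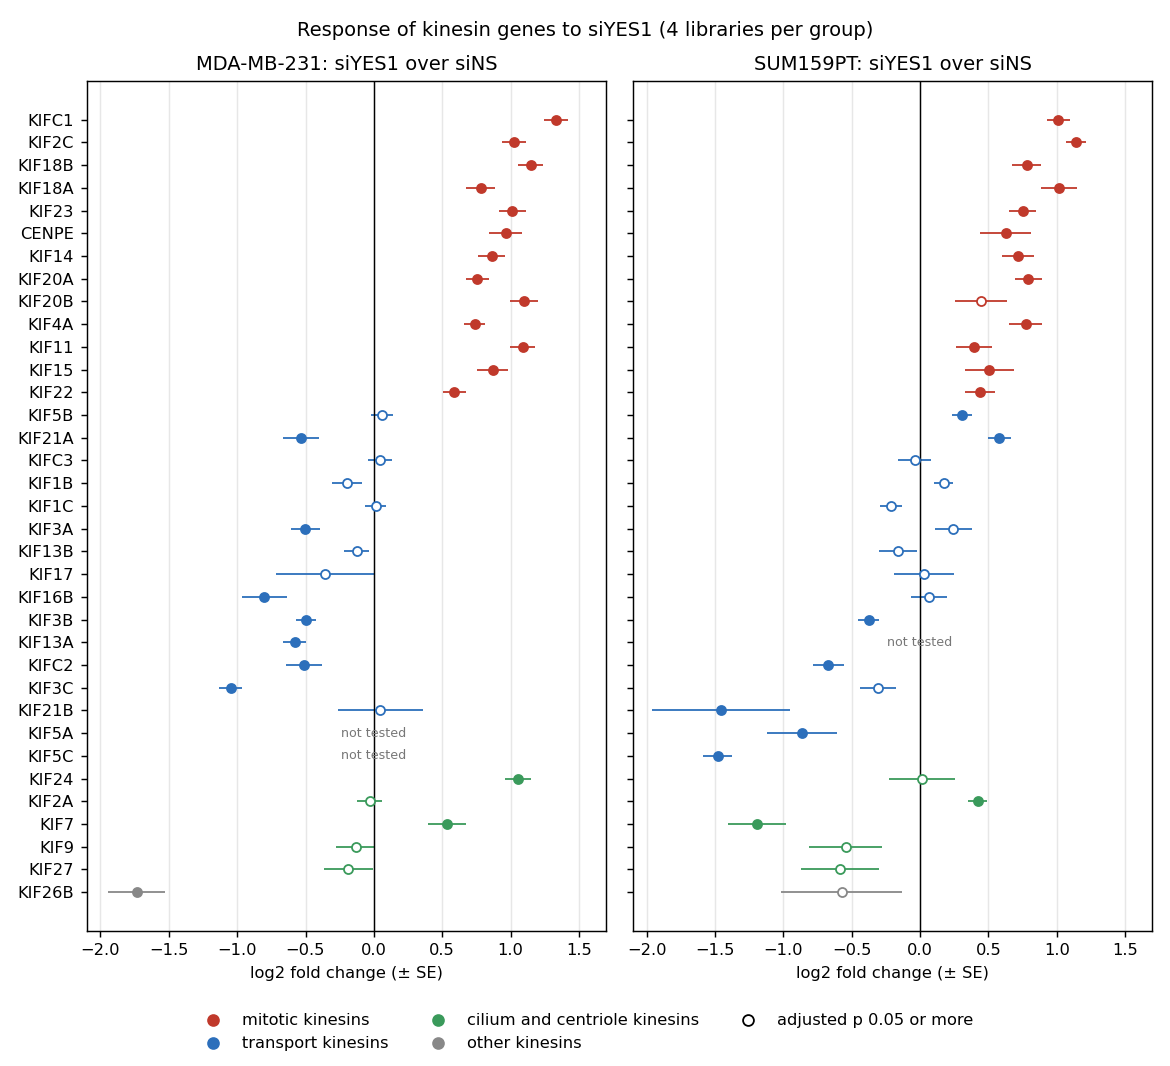
Log2 fold change of siYES1 over siNS (± SE, 4 libraries per group) for each tested kinesin in MDA-MB-231 (left) and SUM159PT (right), with filled points for genes called at an adjusted p under 0.05. All 13 mitotic kinesins (red) lie above 0 in both lines, while the transport kinesins (blue) run from -1.05 to 0.06 in MDA-MB-231 and from -1.48 to 0.58 in SUM159PT.

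In SUM159PT the transport class was mixed: of 15 tested members 2 rose, 5 fell and 8 did not pass the test, with a median log2 fold change of -0.16. Of all tested genes 17.7% rose and 19.0% fell. Every siYES1 library was below every siNS library in 5 of the 15, beside 18.5% of all tested genes. Every siYES1 library was above every siNS library for KIF5B, KIF21A and KIF1B, beside 18.2% of all tested genes. The summed level came to 1224 to 1308 CPM in siYES1 libraries and 1100 to 1235 CPM in siNS libraries, which overlap. KIF5C, a conventional kinesin best known from neurons, changed most. It had 20.5, 20.2, 17.6 and 20.1 CPM in siYES1 libraries and 52.3, 48.3, 56.2 and 61.7 CPM in siNS libraries. Every siYES1 library was far below every siNS library (log2 fold change -1.48 ± 0.11, adjusted p = 5.84e-07), and KIF5A, the other neuronal form, averaged 2.76 ± 0.64 CPM in siYES1 libraries and 5.01 ± 1.14 CPM in siNS libraries (-0.86 ± 0.26, adjusted p = 0.0191, and 0.0569 without siYES1 replicate 4). The 3 KIF5 genes are similar in sequence, and sharing of reads between them in counting was not tested. In MDA-MB-231 siNS libraries KIF5B had 5393 to 8684 reads, while KIF5A and KIF5C each had 0 to 2. KIFC2 fell by 0.67 ± 0.11 and KIF3B by 0.37 ± 0.08 on the log2 scale. KIF21B, at 0.56 ± 0.31 CPM in siYES1 libraries and 1.54 ± 0.66 CPM in siNS libraries, was called on low counts with overlapping groups (adjusted p = 0.0372), and it was called only without siNS replicate 1 or siYES1 replicate 1 among the 8 fits that left out a library. KIF13A, at 0 to 13 counts per library, and KIF1A, at 0 to 6, were too low to be tested. Without siNS replicate 1 the class had 4 members higher and 6 lower: KIF3A at 0.33 (adjusted p = 0.0416), KIF1B at 0.17 (0.0422) and KIF3C at -0.40 (0.00734) were added. Without siYES1 replicate 4 only 3 were called lower.

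KIF21A rose in SUM159PT and fell in MDA-MB-231. In SUM159PT it had 175, 165, 168 and 165 CPM in siYES1 libraries and 95.2, 115, 124 and 116 CPM in siNS libraries (log2 fold change 0.58 ± 0.09, adjusted p = 0.000186). In MDA-MB-231 it had 16.4, 17, 14.6 and 13.6 CPM in siYES1 libraries and 28.4, 20, 18 and 22.4 CPM in siNS libraries. The groups did not overlap in either line, and the directions were opposite. The gene lies on chromosome 12 from 39293228 to 39443390 on the minus strand (GRCh38).

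**Figure D4:**
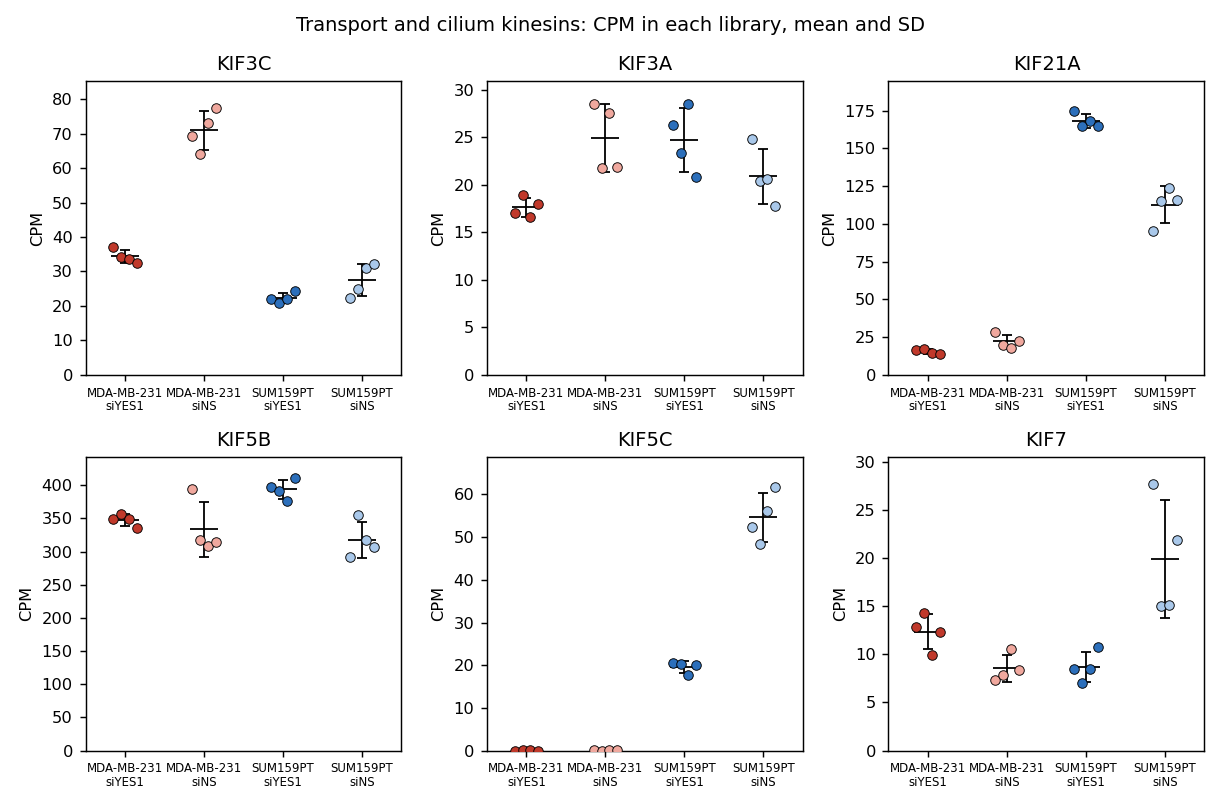
CPM of 5 transport kinesins and of KIF7 in each library (points), scaled within each line, with siYES1 left of siNS and bars at the mean ± SD of 4 libraries. KIF3C is lower after siYES1 in MDA-MB-231, KIF5C in SUM159PT, and KIF21A and KIF7 move in opposite directions in the lines.

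The kinesins of the cilium and centriole did not move as a class. In MDA-MB-231 2 of the 5 tested members rose, where 24.9% of all tested genes did. KIF24, a centriolar depolymerase that suppresses cilium formation, stood at 29.8, 31.2, 25.7 and 29.1 CPM in siYES1 libraries and 14.7, 13, 13.5 and 14.3 CPM in siNS libraries. Its levels were about doubled without overlap (log2 fold change 1.06 ± 0.10, adjusted p = 1.09e-07), while in SUM159PT it was not called, at 0.02 ± 0.24. KIF7, the Hedgehog pathway motor of the ciliary tip, had 12.8, 14.3, 9.93 and 12.3 CPM in MDA-MB-231 siYES1 libraries and 7.38, 7.86, 10.6 and 8.33 CPM in siNS libraries. Those groups overlapped by 1 library (0.53 ± 0.14, adjusted p = 0.00416), and in a fit of all 16 libraries the call was lost (adjusted p = 0.0577). In SUM159PT KIF7 fell, with 8.44, 7.06, 8.51 and 10.8 CPM in siYES1 libraries and 27.7, 15, 15.1 and 21.9 CPM in siNS libraries (-1.19 ± 0.21, adjusted p = 0.000722), and it was also called without siNS replicate 1 (adjusted p = 8.58e-05). KIF7 shares 11.8% of its exon bases with TICRR on the other strand. As the strand setting of the counting is not given in the sources used here, reads of those shared bases cannot be told apart. KIF2A, a depolymerase of spindle poles and of the cilium base, averaged 122 ± 5.36 CPM in SUM159PT siYES1 libraries and 91.1 ± 1.68 CPM in siNS libraries (0.42 ± 0.07), and was not called in MDA-MB-231 (-0.03 ± 0.09). KIF9 and KIF27, motors of motile cilia, were called in neither line, and KIF6 and KIF19 were at or under 16 counts in every library. Of the others, KIF26B, an atypical kinesin, fell in MDA-MB-231 to 2.04 ± 0.72 CPM in siYES1 libraries, against 6.82 ± 0.35 CPM in siNS libraries (-1.74 ± 0.21). KIF12 and KIF26A had at most 6 counts in any library.

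Set side by side, 12 mitotic kinesins were called higher in both lines, as were 9.50% of the 12689 genes tested in both. The transport kinesins called in the same direction in both were KIF3B and KIFC2, both lower, as were 11.0% of those genes. The mitotic class made up 50.5% ± 1.23 of all kinesin CPM in MDA-MB-231 siYES1 and 32.0% ± 2.87 in siNS, and 41.7% ± 1.33 in SUM159PT siYES1 and 31.0% ± 4.0 in siNS (SD, n = 4 each). Per kilobase of exon, the mitotic share was 62.5% ± 1.16 in MDA-MB-231 siYES1 and 43.3% ± 3.1 in siNS, and 52.6% ± 1.14 in SUM159PT siYES1 and 40.6% ± 4.04 in siNS. By level per kilobase, KIFC1 ranked highest in MDA-MB-231 siYES1 at 70.9 ± 2.64 CPM per kb, followed by KIF5B at 54.5 ± 1.42. In MDA-MB-231 siNS KIF5B led at 54.4 ± 7.18, with KIF1C at 47.8 ± 4.5 within its spread, and KIFC1 came next at 29.3 ± 3.85. In SUM159PT KIF5B led in both groups, at 72.3 ± 2.88 CPM per kb in siYES1 and 56.7 ± 5.01 in siNS. It was followed there by KIF2C at 42.1 ± 1.67 and KIF20A at 38.9 ± 2.25 in siYES1, and by KIF20A at 21.8 ± 2.77 with KIFC3 and KIF2A within its spread in siNS.

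The difference between the responses of the lines, SUM159PT minus MDA-MB-231, was tested as an interaction over all 16 libraries, where 24.3% of 16299 genes were called, 15.4% higher and 8.85% lower, and 11 of 35 kinesins. The response of 1 mitotic kinesin differed: that of KIF11 was smaller in SUM159PT by 0.60 ± 0.17 on the log2 scale (adjusted p = 0.0127). The other 12 were not called, with differences from -0.56 for KIF20B (adjusted p = 0.0819) to 0.33 for KIF18A. The interval for KIF14 was -0.37 to 0.27 and for KIF22 -0.33 to 0.23, which leaves room for differences of that size. With total counts as scaling, which moved the median of all genes to -0.19, against 0.03 with TMM, 4 mitotic kinesins were called smaller in SUM159PT.

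Of the 16 transport kinesins tested, 6 had a higher response in SUM159PT and none a lower one. KIF21A differed by 1.21 ± 0.17 (adjusted p = 1.49e-05), KIF16B by 0.96 ± 0.21 (0.00202), KIF3A by 0.84 ± 0.18 (0.00182) and KIF3C by 0.84 ± 0.16 (0.000416). KIF3A stood at 26.3, 23.3, 28.5 and 20.8 CPM in SUM159PT siYES1 libraries and 24.8, 20.4, 20.6 and 17.8 CPM in siNS libraries, which overlap, while in MDA-MB-231 it had 16.6 to 18.9 CPM in siYES1 libraries and 21.8 to 28.5 CPM in siNS libraries. KIF1B differed by 0.47 ± 0.14 (0.0214, and 0.0552 and 0.053 without MDA-MB-231 siYES1 replicates 3 and 4), and by 0.24 with total counts (0.241). KIF5B differed by 0.35 ± 0.12 (0.0334), and its call was lost in 10 of the 16 fits that left out a library, SUM159PT siNS replicate 1 among them (0.25, adjusted p = 0.111). It was also lost under RLE scaling, total counts, no filter, DESeq2 and the replicate block (adjusted p = 0.0564 to 0.421). Among the other classes, KIF7 differed by -1.63 ± 0.27 (0.000134), KIF24 by -0.94 ± 0.24 (0.00653) and KIF2A by 0.55 ± 0.12 (0.00184), which with total counts was 0.33 (0.0517). KIF26B, at 1.26 ± 0.46 (0.0489), was lost in 13 of those 16 fits (1.09, adjusted p = 0.089 without SUM159PT siNS replicate 1), and under RLE scaling, total counts, no filter, the replicate block and a minimum mean of 1 CPM. With KIF5A and KIF5C near 0 in MDA-MB-231, their differences could not be read.

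The lines also differed in the control libraries. Between SUM159PT siNS and MDA-MB-231 siNS, 77.0% of 16299 genes were called, 38.0% higher and 39.0% lower, and 22 of 35 kinesins. Line, medium and any batch of the libraries cannot be told apart. Of 16 transport kinesins tested, 7 were higher in SUM159PT and 5 lower, and for 6 and 5 of them the lines did not overlap, beside 32.5% and 34.2% of all tested genes. KIF5C had 54.8, 50.9, 58.9 and 64.5 CPM in SUM159PT siNS and 0.0882, 0, 0.0544 and 0.0495 CPM in MDA-MB-231 siNS, where no library had more than 2 reads. KIF5A had 72 to 117 reads per SUM159PT siNS library, and 0, 0, 2 and 0 reads in the MDA-MB-231 siNS libraries. KIF13A went the other way, with 0.599, 0.809, 0.24 and 0 CPM in SUM159PT siNS and 154, 137, 134 and 136 CPM in MDA-MB-231 siNS. These 3 motors were each close to absent from the counts of 1 line and well above background in the other.

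Other transport kinesins differed by smaller steps. KIF17, KIF21A and KIF16B were higher in SUM159PT by 3.36 ± 0.28, 2.47 ± 0.12 and 1.66 ± 0.15 on the log2 scale. KIF21A had 99.7 to 130 CPM in SUM159PT siNS and 17.1 to 27.5 CPM in MDA-MB-231 siNS. KIF1C averaged 136 ± 13.5 CPM in SUM159PT siNS and 410 ± 38.6 CPM in MDA-MB-231 siNS (log2 fold change -1.60 ± 0.08), and KIF13B, KIF3C and KIF3B had log2 fold changes of -1.36, -1.23 and -0.92. KIF1B was called at 0.64 ± 0.10. KIF21B was called at 0.99 ± 0.42 on low counts, and its call was lost without MDA-MB-231 siNS replicate 1, 2 or 4 or SUM159PT siNS replicate 2 or 4 (adjusted p = 0.0742 to 0.131). KIF5B had an interval of -0.10 to 0.22 and KIFC3 of -0.21 to 0.24.

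**Figure D5:**
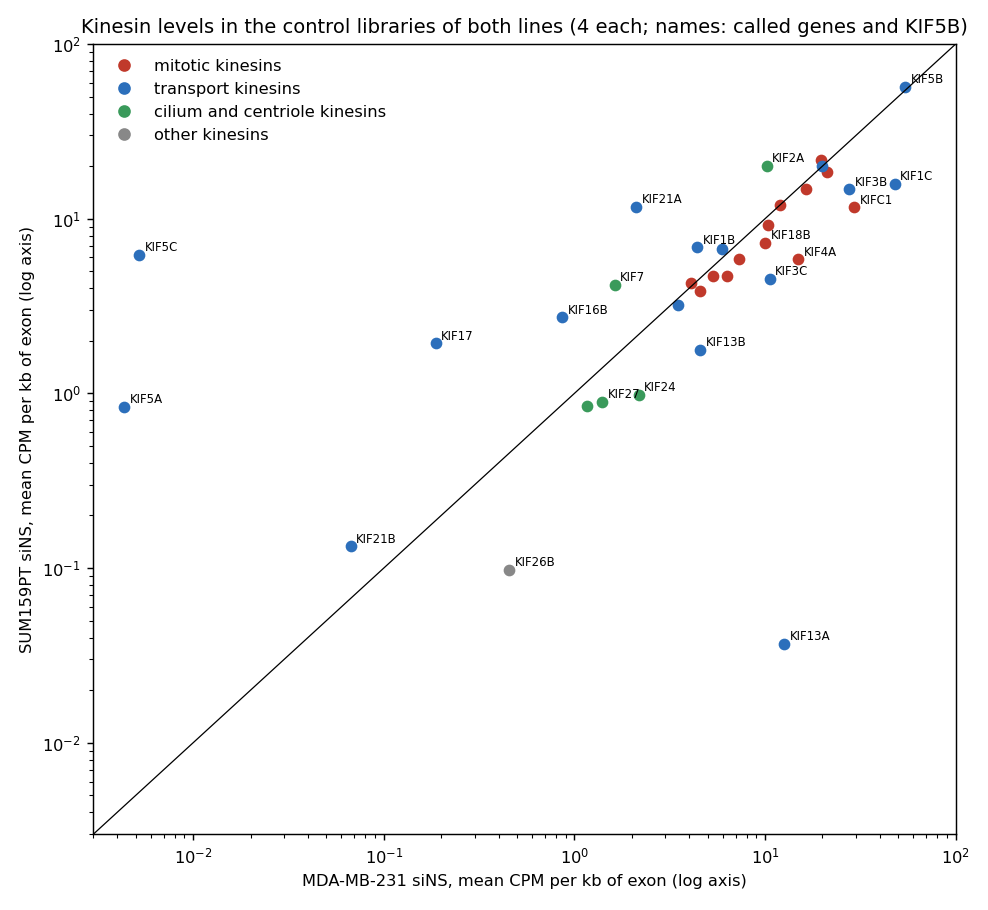
Mean level of each tested kinesin in SUM159PT siNS (vertical) and MDA-MB-231 siNS (horizontal), in CPM per kilobase of exon on log axes, 4 libraries each, with the line of equality and names on most called genes and KIF5B. KIF5C and KIF5A lie far above the line, KIF13A far below it, and the mitotic kinesins (red) lie near it apart from KIFC1 and KIF4A.

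No mitotic kinesin was higher in SUM159PT siNS, where 38.0% of all tested genes were. Of the 13, 5 were lower, near the 39.0% of all tested genes that were lower. The median log2 fold change was -0.19 beside -0.03 for all genes. KIF4A had 30.4, 25.3, 26 and 24.1 CPM in SUM159PT siNS and 73.8, 67.5, 69.9 and 59.3 CPM in MDA-MB-231 siNS (-1.35 ± 0.10, adjusted p = 6.13e-11). KIFC1 had 42.4, 35.8, 37.4 and 39.1 CPM in SUM159PT siNS and 90.3, 92.6, 117 and 91.8 CPM in MDA-MB-231 siNS (-1.34 ± 0.09). Neither gene overlapped between the lines, and KIFC1 after siYES1 in SUM159PT, at 76.1 to 83 CPM on this scale, stayed under the MDA-MB-231 siNS libraries. KIF18B, KIF18A and KIF2C had smaller differences of -0.47, -0.43 and -0.19, and the KIF2C call was lost without MDA-MB-231 siNS replicate 2 or 3 or SUM159PT siNS replicate 1, 2 or 3 (adjusted p = 0.0749 to 0.143). The count of lower mitotic kinesins was 9 without SUM159PT siNS replicate 1 and 8 without MDA-MB-231 siNS replicate 4. KIF4A has a near-identical retrocopy, so its counts are less certain. KIF7 (1.35 ± 0.19) and KIF2A (0.98 ± 0.09) were higher in SUM159PT, and KIF24 (-1.15 ± 0.17), KIF27 (-0.65 ± 0.24, lost without MDA-MB-231 siNS replicate 1 or 4 or SUM159PT siNS replicate 2, adjusted p = 0.0543 to 0.0573) and KIF26B (-2.21 ± 0.31) were lower.

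Proteins that work with the mitotic kinesins were followed through a list of 19 regulators and partners. In MDA-MB-231 the median log2 fold change was 1.06, with 17 called higher and 2 lower, beside 24.9% and 27.5% of all tested genes. HMMR, a spindle assembly factor, averaged 16.7 ± 1.0 CPM in siYES1 libraries and 5.49 ± 0.80 CPM in siNS libraries (1.60 ± 0.12). CIT, the citron kinase that KIF14 binds, averaged 135 ± 9.99 CPM in siYES1 libraries and 47.5 ± 6.24 CPM in siNS libraries, and RACGAP1, the partner of KIF23 in centralspindlin, had a log2 fold change of 1.38 ± 0.09. The 2 that fell were the plus-end binding proteins MAPRE3 (-1.49 ± 0.11) and MAPRE2 (-0.38 ± 0.09). In SUM159PT 16 of the 19 rose, beside 17.7% of all tested genes, and none fell, with a median of 0.78. RACGAP1 averaged 135 ± 3.4 CPM in siYES1 libraries and 60.7 ± 5.37 CPM in siNS libraries (1.16 ± 0.08), AURKA, the centrosomal kinase, had 1.06 ± 0.11 and BUB1B, a checkpoint protein that binds CENPE, 1.00 ± 0.20.

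The 22 light chains, adaptors and cofactors of transport kinesins moved in both directions. In MDA-MB-231 5 rose and 10 fell of 21 tested, with a median of -0.17, where 24.9% of all tested genes rose and 27.5% fell. In SUM159PT 9 rose and 2 fell of 19, with a median of 0.28, where 17.7% rose and 19.0% fell. MAPK8IP1, the JIP1 adaptor of kinesin light chains, fell in both lines. It averaged 9.78 ± 2.31 CPM in MDA-MB-231 siYES1 and 39.0 ± 2.61 CPM in siNS, and 10.0 ± 0.21 CPM in SUM159PT siYES1 and 30.7 ± 3.95 CPM in siNS. The mitochondrial adaptor TRAK2 also fell in both, by 0.74 ± 0.10 on the log2 scale in MDA-MB-231 and by 0.88 ± 0.16 in SUM159PT. Its relative TRAK1 had opposite changes, -0.80 ± 0.07 in MDA-MB-231 and 0.70 ± 0.08 in SUM159PT. KLC2, a kinesin light chain, and MAP7D1, a microtubule protein that recruits kinesin, rose in MDA-MB-231 by 0.49 ± 0.08 and 0.35 ± 0.08, and PPFIA1, a scaffold that binds the motor KIF1A, rose in SUM159PT by 0.61 ± 0.11.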

How the data were processed

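The authors deposited raw read counts per gene, with 1 table for each cell line. Reads were aligned with HISAT2 2.0.5 and counted with featureCounts 1.5.0-p3 on hg38, per the submitters' processing notes. Not given in the sources used here are the annotation release and the strand setting. Counts of the 18 kinesins that share exon bases with another gene are therefore less certain. All 58735 gene IDs were named from GENCODE 29. No column was left out (0 columns of other samples). No library was a duplicate: pairs of the same group gave a chi-squared of 2.21 to 49.6 per degree of freedom.

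Each line was fitted on its 8 libraries, and the interaction and the comparison of control libraries on all 16, with the quasi-likelihood F test of edgeR 4.0.16 in R 4.3.3, TMM factors and filterByExpr, adjusted by Benjamini-Hochberg over all genes tested. That filter left 33 kinesins tested in MDA-MB-231, 34 in SUM159PT and 35 in the joint fit. The SE was derived from the F statistic, and 95% intervals are 1.96 SE. CPM was scaled within a line for siYES1 against siNS and over all 16 libraries for class sums, levels per kilobase and the line comparison. Scripts were tested on simulated data. Members and lists were chosen with earlier results of these data known, so classes are described by counts and medians without a test. Named were YES1, all kinesins, line markers and, of each partner list, up to 3 called genes per line and direction with the largest change at 5 CPM or more and no overlap between groups. A gene of the transport partner list that the rule names is not reported here. Alternatives were RLE and total-count scaling, no filter, DESeq2 1.42.0, a filter at a mean of 1 CPM, a replicate block, voom in limma 3.58.1, a joint fit, glmTreat at 1.5-fold, KIF2A as mitotic, and each library left out.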

Additional observations from a re-analysis of the deposited data

Results flagged for a closer look

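A kinesin's value in a library was listed here when its gap to the nearest library of the group, as a share of the group's range, exceeded Dixon's 95% critical value for 4 libraries. Chance gives about 1 in 20 groups, and 16 values were found in 134 groups. SUM159PT siYES1 replicate 4 held 5 of them: it was the highest of its group for KIF11 at 105 CPM, KIF1B at 142, KIF1C at 114 and KIF2A at 130, and the lowest for KIF27 at 1.77. SUM159PT siYES1 replicate 3 was lowest for KIF5C at 17.6 CPM. In SUM159PT siNS, replicate 1 was highest for KIF22 at 61.2 CPM and lowest for KIF17 at 4.69, replicate 2 was lowest for KIF27 at 2.84, and replicate 4 was highest for KIF2C at 68.8 and KIF26B at 2.3. In MDA-MB-231 siYES1, replicate 4 was lowest for KIF13B at 44.5 CPM and KIF27 at 4.63. In MDA-MB-231 siNS, replicate 1 was highest for KIF5B at 395 CPM, replicate 3 for KIFC1 at 123 and replicate 4 for KIF17 at 1.44.

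The response to siYES1 differed between the lines, by the interaction test, in 11 kinesins, where 24.3% of all 16299 tested genes were called. The difference of log2 fold changes, SUM159PT minus MDA-MB-231, was positive for KIF21A (1.21), KIF26B (1.26), KIF16B (0.96), KIF3A (0.84), KIF3C (0.84), KIF2A (0.55), KIF1B (0.47) and KIF5B (0.35). It was negative for KIF7 (-1.63), KIF24 (-0.94) and KIF11 (-0.60). The calls of KIF1B, KIF5B and KIF26B were kept in 14, 6 and 3 of the 16 fits that left out a library. KIF21A and KIF7 were called in opposite directions in the lines.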

How the results depend on the processing

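Against a fold of 1.5 (glmTreat), 12 kinesins were called in MDA-MB-231 in place of 23, 9 mitotic kinesins higher in place of 13 (KIF18A, KIF4A, KIF22 and KIF20A were lost), 1 transport kinesin lower in place of 7, and 1770 of all genes in place of 7503. In SUM159PT the same test called 5 kinesins in place of 21, 3 mitotic kinesins higher in place of 12, 0 transport kinesins higher, 1 lower, and 1137 genes in place of 5321. Total counts called 1 transport kinesin higher in SUM159PT in place of 2 and 7 lower in place of 5, with KIF3C and KIF1C added. In the interaction they called 4 mitotic and 1 transport kinesin lower in place of 1 and 0, and 4 transport kinesins higher in place of 6. They lowered the share of calls that were higher to 25.0% in SUM159PT, against 48.2% with TMM, and to 33.0% in the interaction, against 63.5%. In MDA-MB-231 that share was 47.6%, and 37.8% in the joint fit. With no filter or with DESeq2, 2 mitotic kinesins were lower in the interaction. Signs turned only in kinesins that were not called: in MDA-MB-231 KIF1C (-0.033 with total counts, -0.043 in the joint fit), KIFC3 (-0.003 and -0.012) and KIF21B (-0.013 in the joint fit), and in SUM159PT KIF17 (-0.13), KIF16B (-0.104) and KIF24 (-0.162) with total counts and KIFC3 (0.003) in the joint fit. The cause was not tested. Leaving out a library turned KIF1C (-0.039 to 0.07), KIF21B (-0.096 to 0.251), KIFC3 (-0.03 to 0.111) and KIF2A (-0.089 to 0.052) in MDA-MB-231, and KIF17 (-0.169 to 0.119), KIF16B (-0.002 to 0.155), KIFC3 (-0.159 to 0.039) and KIF24 (-0.152 to 0.211) in SUM159PT.

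Leaving out a library gave 0 to 1 transport kinesins higher in MDA-MB-231 (1 without siNS replicate 1) and a gap between the class medians of 1.148 to 1.463 (lowest without siNS replicate 4). In SUM159PT it gave 2 to 4 transport kinesins higher, 3 to 6 lower and 9 to 13 mitotic kinesins higher. The interaction had 0 to 1 mitotic higher, 1 to 2 mitotic lower and 0 to 1 transport lower, and the line comparison had 0 to 1 mitotic higher and 4 to 9 lower.

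Libraries with the same replicate number did not deviate together (correlations -0.123 to 0.033 in MDA-MB-231 and -0.068 to 0.088 in SUM159PT). With a replicate block 23 kinesins were called in MDA-MB-231 and 21 in SUM159PT, where 13 mitotic kinesins were higher and 4 transport kinesins lower.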

Other observations

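Cytoplasmic dynein, the minus-end motor that opposes kinesins, and its activator dynactin were followed through 25 subunits and adaptors. In MDA-MB-231 7 of 24 tested subunits and adaptors rose and 1, DCTN6, fell, and the median log2 fold change was 0.05, where 24.9% of all tested genes rose and 27.5% fell. In SUM159PT 10 of 23 rose and 0 fell, and the median was 0.21, where 17.7% of all tested genes rose and 19.0% fell. In MDA-MB-231 the largest changes without overlap were those of the dynactin subunit DCTN4 (96.1 ± 1.75 CPM in siYES1 and 61.5 ± 8.17 CPM in siNS, log2 fold change 0.64 ± 0.09), the cargo adaptor BICD2 (0.44 ± 0.07) and the light chain DYNLL1 (0.30 ± 0.08). In SUM159PT they were those of the light chain DYNLT3 (51.7 ± 3.08 CPM in siYES1 and 28.6 ± 2.42 CPM in siNS, 0.86 ± 0.10) and of NDEL1 (0.80 ± 0.16) and NDE1 (0.69 ± 0.10), dynein regulators that act at centrosomes and kinetochores.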
